A study of Mus musculus with 12 samples.

Results

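Mlxipl, the gene of the carbohydrate response element binding protein ChREBP, and 8 genes known as its sugar-responsive targets (Pklr, Thrsp, Txnip, Khk, Tkfc, Slc2a2, Gckr and Fgf21) were followed in mouse liver by their annotated symbols. All 9 were found, with 1 probe set each, among 19505 genes measured by 22206 probe sets. Livers came from 12 adult male C57BL/6J mice, 4 to 5 months old, kept at 23 °C on standard chow, with 1 array per mouse. Arrays 1 to 6 came from sons of wild-type (WT) dams. Arrays 7 to 12 came from sons of UCP1-KO dams, which lack uncoupling protein 1, the heat-producing protein of brown fat mitochondria. Sires were heterozygous (HET) throughout and all 12 offspring are labelled HET, so by label only the mother's genotype separates the groups. The Ucp1-deficient allele was inherited from the father in the first group and from the mother in the second, which cannot be told apart from the genotype of the dam. The labels give neither litter nor feeding state at collection, so p-values reflect the spread among these 12 animals, and littermates may be among them. In whole liver, fewer cells of a type and less RNA per cell cannot be told apart.

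ChREBP is a transcription factor that hepatocytes activate when glucose or fructose is plentiful. With its partner Mlx it binds paired E-box motifs called carbohydrate response elements, and it raises genes that trap sugars, run glycolysis and turn the carbon into fat. In liver it is known for driving the liver-type pyruvate kinase gene Pklr, a standard readout of its activity, and Mlxipl messenger level and ChREBP activity are separate quantities. These genes were picked with their differences by dam genotype known, through the log2 signals of the same 12 arrays. The differences by dam genotype are therefore given as a description, with the 95% interval of a limma fit across all probe sets and no test of their own. How the genes moved together from mouse to mouse within a group was tested.

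The promoters show where element-like letters lie in these genes. RefSeq promoters (assembly GRCm38.p6) matched all 9 genes, with 11 promoters among them, and the 250 bases before each start site were searched on both strands. The single E-box CACGTG lay in 3 of the 11 promoters and in 6.02% of 32851 promoters of all genes. A pair of E-box ends written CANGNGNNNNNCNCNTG lay in 1 of the 11 and in 0.454% of all, and the direct repeat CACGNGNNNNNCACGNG lay in 1 of the 11 and in 0.0457% of all. A match to either paired form may contain CACGTG. The sequences below were chosen to set the pyruvate kinase promoter and the Txnip promoter, which hold the paired forms, beside those of Mlxipl and Khk, which hold the single E-box, with the match in capitals and each run ending at the base before the start site.
Pklr (chr3:89136373-89136622, plus strand): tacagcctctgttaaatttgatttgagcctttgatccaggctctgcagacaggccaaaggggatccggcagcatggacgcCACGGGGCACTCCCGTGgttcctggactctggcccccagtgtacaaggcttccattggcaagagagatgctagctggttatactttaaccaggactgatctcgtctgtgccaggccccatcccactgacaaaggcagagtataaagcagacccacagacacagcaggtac
Txnip (chr3:96557707-96557956, plus strand): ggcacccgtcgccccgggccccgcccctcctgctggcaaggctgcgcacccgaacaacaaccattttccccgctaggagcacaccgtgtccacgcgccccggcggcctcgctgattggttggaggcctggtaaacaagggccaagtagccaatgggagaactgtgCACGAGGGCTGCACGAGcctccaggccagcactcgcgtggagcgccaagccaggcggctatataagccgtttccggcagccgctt
Mlxipl (chr5:135089640-135089889, plus strand): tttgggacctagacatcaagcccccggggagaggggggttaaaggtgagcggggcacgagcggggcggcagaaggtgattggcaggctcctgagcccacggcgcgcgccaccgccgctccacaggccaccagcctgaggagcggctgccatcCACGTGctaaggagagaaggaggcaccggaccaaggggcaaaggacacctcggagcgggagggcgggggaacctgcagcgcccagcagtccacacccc
Khk (chr5:30921309-30921558, plus strand): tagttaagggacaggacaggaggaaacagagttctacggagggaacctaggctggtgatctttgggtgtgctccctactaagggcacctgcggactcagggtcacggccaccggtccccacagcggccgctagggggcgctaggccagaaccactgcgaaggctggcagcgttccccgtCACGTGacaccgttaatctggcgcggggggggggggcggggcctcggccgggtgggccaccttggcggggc

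The Pklr match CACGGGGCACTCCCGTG lay 170 to 154 bases upstream of the downstream start of the gene, known as its liver-type promoter. The Txnip match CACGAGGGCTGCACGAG lay 85 to 69 bases upstream. The E-box of Mlxipl lay 98 to 93 bases upstream of 1 of its start sites, and that of Khk 71 to 66 bases upstream. Fgf21, on the minus strand of chromosome 7, held CACGTG 50 to 45 bases upstream. No match says only that these letters are not in this window, and a match is a description of letters, not of binding.

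Array medians of the deposited values were 6.19 to 6.28 (log2), a likeness that the authors' processing itself produces. All 10 hepatocyte markers measured (Alb, Apoa1, Ttr and others) lay above the negative control median on every array. Their mean per array was 18.60 to 18.87 in offspring of WT dams and 18.76 to 18.92 in offspring of UCP1-KO dams. Of 79 marker genes of hepatocytes and 9 other cell types, 70 were measured, and 0 were called by dam genotype or in the fits on Mlxipl or Pklr given below. Most markers of several cell types, Kupffer cells among them, nevertheless had slopes below 0 on Mlxipl. So did most genes above background, as given with those fits. Kupffer cell markers were above the negative control median on all arrays in 7 of 8 genes and sinusoidal endothelial markers in 8 of 8, as were 0 of 7 neutrophil and 0 of 7 pancreatic acinar markers. The median signal of the 5222 negative control probe sets was 6.41 to 6.62 on WT-dam arrays 3 to 6, 6.14 on WT-dam arrays 1 and 2, and 5.96 to 6.36 across arrays 7 to 12. It is set beside the results it moved with.

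Mlxipl itself read lower in the offspring of UCP1-KO dams. Its log2 signal had a lowest value of 14.66, a median of 15.71 and a highest value of 16.02 in offspring of WT dams, against 14.15, 14.33 and 14.88 in offspring of UCP1-KO dams. WT-dam arrays 3 to 6 stood at 15.62 to 16.02, above every array of the other group, whereas WT-dam arrays 1 and 2, at 14.72 and 14.66, lay within the range of the offspring of UCP1-KO dams. The group means were 15.46 ± 0.61 and 14.42 ± 0.27 (SD, n = 6 each), a log2 difference of -1.04 (95% interval -1.52 to -0.56) or a 2.05-fold lower signal. Of all probe sets 0.275% differed by more, which is description, since the gene was chosen with this difference known. Without WT-dam arrays 3 to 6 the difference was -0.27. The high arrays for Mlxipl were also the 4 arrays with the highest negative control medians. With that median as a covariate the difference was -0.65, and its part in the difference was not tested further.

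Pklr, which makes the last enzyme of glycolysis in liver, had the largest difference of group means among the 9 genes. Its log2 signal was 13.03, 14.52 and 15.29 (lowest, median and highest) in offspring of WT dams and 10.77, 12.31 and 14.24 in offspring of UCP1-KO dams. The second group split: UCP1-KO-dam arrays 8, 10 and 11 read 11.26, 10.77 and 10.98, below every other array, and arrays 7, 9 and 12 read 13.48, 13.37 and 14.24, inside the range of the offspring of WT dams. The means were 14.41 ± 0.88 and 12.35 ± 1.51 (SD, n = 6 each), a log2 difference of -2.05 (95% interval -3.21 to -0.90) or a 4.15-fold lower signal. Of all probe sets 0.009007% differed by more, a rank that describes a gene chosen with this difference known. Without UCP1-KO-dam arrays 8, 10 and 11 the difference was -0.71.

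Thrsp encodes a small protein, also called Spot 14, that promotes fatty acid synthesis and responds to thyroid hormone as well as to sugar. It read 13.48, 15.24 and 16.82 (lowest, median and highest log2 signal) in offspring of WT dams and 12.52, 14.46 and 15.00 in offspring of UCP1-KO dams. UCP1-KO-dam arrays 8 and 10 were the lowest, at 12.52 and 12.74, next to WT-dam array 2 at 13.48, and the groups overlapped. The difference of the means, 15.31 ± 1.20 and 13.98 ± 1.07 (SD, n = 6 each), was -1.33 (95% interval -2.39 to -0.27), a 2.51-fold lower signal. Pklr and Thrsp were also among the most variable transcripts of these livers within a group. Their within-group SDs of 1.24 and 1.13 exceeded those of 99.8% of probe sets each.

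**Figure D1:**
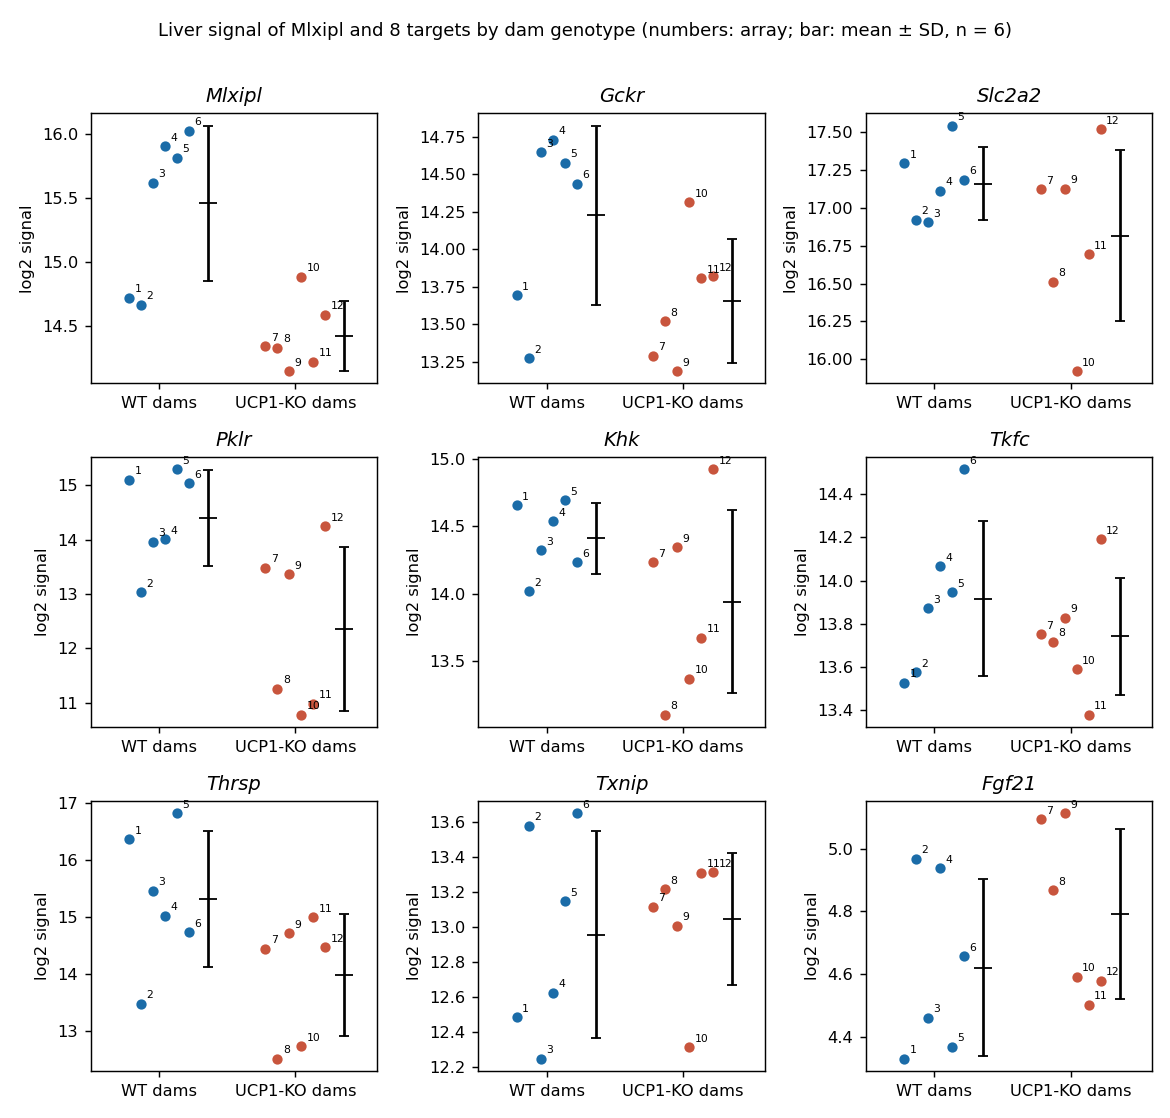
Log2 signal of Mlxipl and its 8 targets on each array (points, numbered by array) in offspring of WT dams (blue) and UCP1-KO dams (red), with bars for the mean ± SD of 6 arrays. Mlxipl is high on WT-dam arrays 3 to 6 and Pklr is low on UCP1-KO-dam arrays 8, 10 and 11, and the groups overlap in all 9 panels.

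The enzymes that bring fructose carbon into the pathway differed less. Khk, ketohexokinase, phosphorylates fructose, and it read 14.02, 14.43 and 14.69 (lowest, median and highest log2 signal) in offspring of WT dams against 13.10, 13.95 and 14.92 in offspring of UCP1-KO dams. The 3 lowest arrays of all were again UCP1-KO-dam arrays 8, 10 and 11, at 13.10, 13.37 and 13.67, while the highest was array 12 of the same group. The means were 14.41 ± 0.26 and 13.94 ± 0.68 (SD, n = 6 each), with a difference of -0.47 (95% interval -0.99 to 0.05), which became 0.09 without those 3 arrays. Tkfc, triokinase, phosphorylates the glyceraldehyde released from fructose. It read 13.53, 13.91 and 14.51 in offspring of WT dams and 13.38, 13.73 and 14.19 in offspring of UCP1-KO dams. The difference of its means, 13.92 ± 0.36 and 13.74 ± 0.27 (SD, n = 6 each), was -0.17 (95% interval -0.54 to 0.19), with 1 array of each group outside the range of the other. It shrank to -0.05 without WT-dam array 6. It was 0.01 without UCP1-KO-dam arrays 8, 10 and 11, and it turned to 0.19 without WT-dam arrays 3 to 6.

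The genes of glucose entry and trapping were Slc2a2 and Gckr. Slc2a2 encodes GLUT2, the glucose and fructose transporter of hepatocytes. Its log2 signal was 16.90, 17.15 and 17.54 (lowest, median and highest) in offspring of WT dams and 15.92, 16.91 and 17.52 in offspring of UCP1-KO dams. Again UCP1-KO-dam arrays 8, 10 and 11 were the lowest, at 16.51, 15.92 and 16.69. The means were 17.16 ± 0.24 and 16.82 ± 0.56 (SD, n = 6 each), a difference of -0.34 (95% interval -0.80 to 0.11), which became 0.10 without those 3 arrays and -0.17 without array 10 alone. Gckr encodes a regulatory protein of hepatic glucose use that acts in the nucleus. It showed the split of Mlxipl instead, at 14.44 to 14.73 on WT-dam arrays 3 to 6 and 13.69 and 13.27 on WT-dam arrays 1 and 2, against 13.19, 13.66 and 14.31 (lowest, median and highest) in offspring of UCP1-KO dams. Its means were 14.23 ± 0.60 and 13.66 ± 0.41 (SD, n = 6 each), a difference of -0.57 (95% interval -1.09 to -0.05), which became 0.17 without WT-dam arrays 3 to 6. With the negative control median as a covariate it was -0.14.

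The last pair of targets did not read lower. Txnip encodes thioredoxin-interacting protein, a brake on glucose uptake, and the direct repeat printed above lies in its promoter. Its log2 signal was 12.25, 12.89 and 13.65 (lowest, median and highest) in offspring of WT dams and 12.31, 13.17 and 13.31 in offspring of UCP1-KO dams. The means of 12.96 ± 0.59 and 13.05 ± 0.38 (SD, n = 6 each) differed by 0.09 (95% interval -0.41 to 0.59), and the range of the second group lay inside that of the first. Leaving out WT-dam array 3 turned the sign, to -0.05. Fgf21, a hormone secreted by liver, was below the negative control median on all 12 arrays and above the background controls on 2, with means of 4.62 ± 0.28 and 4.79 ± 0.27 (SD, n = 6 each). Its difference of 0.17 (95% interval -0.16 to 0.50) is between dim signals, where changes are compressed on this scale.

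Counted together, 7 of the 9 genes had a lower mean in the offspring of UCP1-KO dams, where 43.2% of all probe sets did. The median difference over the 9 was -0.47, against 0.03 over all probe sets, and it was 0.01 without UCP1-KO-dam arrays 8, 10 and 11. By the limma adjusted p over all probe sets, 0 of 9 were called, beside 0.036% of probe sets. At an unadjusted p under 0.05 there were 4 of 9 (Mlxipl, Pklr, Thrsp and Gckr), beside 13.1% of probe sets. None of the 9 had groups without overlap, beside 1.05% of probe sets. Without WT-dam array 2, Mlxipl alone of the 9 was called, with a difference of -1.20 and a limma adjusted p of 0.0235. In that setting 112 of all 22206 probe sets were called, against 8 with all arrays. It was the only 1 of 19 alternative settings in which Mlxipl was called. Because the genes were chosen on this contrast, nothing is read from these counts.

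From mouse to mouse within a group, Khk and Slc2a2 rose with Pklr, in calls that several single arrays and the choice of normalization decide. Gckr had the steepest slope on Mlxipl but did not pass the test, and no relation between Mlxipl and Pklr was detected. This was measured with limma fits of every other probe set on the level of the anchor gene on each array, with the dam genotype as a second term. The slope is the change in log2 signal per log2 unit of the anchor among mice of the same group. The fit on Pklr was added after the values had been seen. Each fit gives 8 relations to the other genes, and p-values were adjusted over all 22205 probe sets.

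On Mlxipl, 0 of 8 targets were called, and 0% of all probe sets were called, with 2077 (9.35%) at an unadjusted p under 0.05. The slope of Gckr was 0.97 (95% interval 0.61 to 1.34, limma adjusted p = 0.152), close to equal change on the log2 scale. By likeness over the 12 deviations from group means it ranked 9 of 9804 genes measured above background. Over the 21 alternative settings the Gckr slope ran from 0.64 to 1.29, and its adjusted p fell below the threshold in 1 of them (0.0333, with a variance trend and robust estimation). The slope of Tkfc was 0.46 (95% interval 0.10 to 0.82, limma adjusted p = 0.437), and 0.15 in offspring of UCP1-KO dams alone. That of Pklr was 0.27 with a wide interval, -1.12 to 1.65 (adjusted p = 0.936). Khk at 0.03, Thrsp at -0.01, Slc2a2 at -0.08, Fgf21 at -0.09 and Txnip at -0.14 had intervals across 0. A product term found no difference of slopes between the groups for any of the 8 (adjusted p = 1.00 each), with 0 probe sets called and 718 (3.23%) at an unadjusted p under 0.05.

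In offspring of WT dams the Mlxipl levels fell into 2 clusters, so correlations are given first for the other group. Among the 6 offspring of UCP1-KO dams, Gckr and Mlxipl had r = 0.835 (exact permutation p = 0.0375) and rho = 0.771 (exact p = 0.103), both unadjusted for the 8 relations. The relation rests on the extreme arrays, since r was 0.0894 without the 2 arrays farthest from the median. Tkfc had r = 0.153 (exact permutation p = 0.765) and rho = 0.029 (exact p = 1.00) with Mlxipl there, and r = 0.069 without the 2 farthest arrays. Among the 6 offspring of WT dams Tkfc and Mlxipl had r = 0.882 (exact permutation p = 0.00417) and rho = 0.943 (exact p = 0.0167). In that group r was 0.876 without the 2 farthest arrays. Gckr and Mlxipl had r = 0.927 (exact permutation p = 0.0458) and rho = 0.600 (exact p = 0.242) in it. Without the 2 farthest arrays r was -0.509. These p-values are unadjusted too. Against Mlxipl among offspring of UCP1-KO dams, the negative control median had r = 0.799 (exact permutation p = 0.0583) and rho = 0.943 (exact p = 0.0167). This r was 0.968 without the 2 farthest arrays. Against Gckr in the same group the negative control median had r = 0.656 (exact permutation p = 0.142) and rho = 0.600 (exact p = 0.242), with r of -0.504 without the 2 farthest arrays. Among offspring of WT dams it had r = 0.947 with Gckr (exact permutation p = 0.00139) and rho = 1.00 (exact p = 0.00278). There r was 0.916 without the 2 farthest arrays. Against Mlxipl in offspring of WT dams it had r = 0.862 (exact permutation p = 0.0597), and -0.501 without the 2 farthest arrays. With the negative control median as a covariate the Gckr slope on Mlxipl was 0.64 (limma adjusted p = 0.990). The part of the control signal in the relation was not tested further.

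Markers of Kupffer cells, the resident macrophages of liver, leaned opposite to Mlxipl within groups without passing the test. All 8 measured markers had slopes below 0 on Mlxipl, with r of -0.773 (C1qa), -0.759 (Clec4f) and up to -0.366 (Cd5l) over the 12 deviations (lowest limma adjusted p = 0.216). C1qc and C1qb, macrophage complement genes outside the list that were chosen after their values were seen, had r of -0.856 and -0.851 (limma adjusted p = 0.152 and 0.168). The mean of the 8 markers per array was 9.28 to 10.81 in offspring of WT dams, with the highest value on array 2, which was also the lowest of that group for Mlxipl, Gckr, Pklr, Thrsp and Khk. It was 9.42 to 10.15 in offspring of UCP1-KO dams, highest on arrays 8 and 11, at 10.09 and 10.15. The slopes of the 8 markers on Pklr were below 0 too, with r of -0.659 to -0.057. All 7 lymphocyte markers measured also had slopes below 0 on Mlxipl, with 1 of 7 above the negative control median on all arrays. So did 8 of 10 hepatocyte, 6 of 8 sinusoidal endothelial, 6 of 8 stellate cell, 4 of 6 cholangiocyte and 4 of 7 neutrophil markers. The counts were 1 of 2 for erythroid, 3 of 7 for adipocyte and 3 of 7 for pancreatic acinar markers. Slopes below 0 on Mlxipl were common among all genes too. Of 9804 genes above background, 38.4% had a higher r with Mlxipl than Thrsp, whose r was -0.005. Means of several lists also moved against the negative control median within groups. Their r with it was -0.536 for Kupffer cells, -0.765 for lymphocytes, -0.803 for stellate cells, -0.628 for endothelium and -0.338 for hepatocytes. The other lists had r of -0.129 (pancreatic acinar) to 0.167 (adipocyte) with it. The part of other cell types in the Mlxipl and Pklr relations was not tested.

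**Figure D2:**
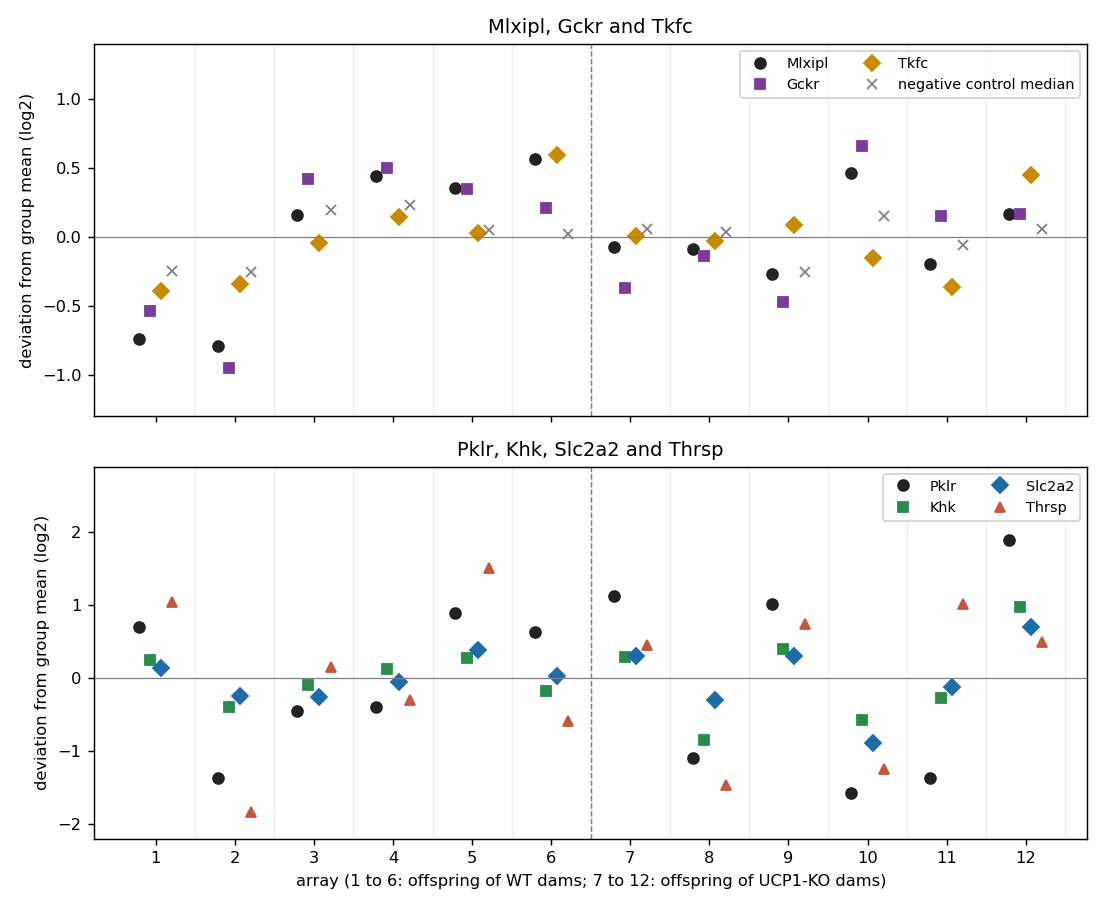
Deviation of log2 signal from the group mean on each array, above for Mlxipl, Gckr, Tkfc and the negative control median and below for Pklr, Khk, Slc2a2 and Thrsp; the dashed line separates offspring of WT dams from offspring of UCP1-KO dams. Mlxipl and Gckr share their low arrays 1 and 2 with the negative controls. Within the UCP1-KO-dam group, Pklr, Khk and Slc2a2 share arrays 8, 10 and 11 as those below 0 and array 12 as the highest. Slc2a2 on array 11 is only -0.12 from its group mean. WT-dam array 2 is below 0 for Pklr, Khk and Slc2a2 too.

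Genes with the pattern most like Mlxipl over the 12 deviations were Vamp1, a synaptic vesicle fusion protein (r = 0.969), 6820431F20Rik (r = 0.941), 2610005L07Rik (r = 0.935), Helz2, a helicase that coactivates nuclear receptors (r = 0.931), and Lce1a2 (r = 0.912). The opposite pattern was strongest in Smpdl3a (r = -0.901), Las1l (r = -0.887) and Scpep1 (r = -0.879). The deviations of these 8 genes had r of 0.734 to 0.879 with those of the negative control median in the first 5, and -0.826 to -0.637 in the other 3. These likenesses are a description of 12 mice.

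On Pklr, 2 of 8 genes were called, Khk and Slc2a2, beside 0.234% of probe sets (52, of which 34 had positive and 18 negative slopes). At an unadjusted p under 0.05 there were 8.04% of probe sets. Khk had a slope of 0.37 (95% interval 0.22 to 0.51, limma adjusted p = 0.0283) and ranked 23 of 9804 genes by likeness to Pklr. Slc2a2 had a slope of 0.31 (95% interval 0.19 to 0.44, limma adjusted p = 0.0380) and ranked 17. Thrsp had the steepest slope, 0.56 (95% interval 0.18 to 0.94), with an adjusted p of 0.350 that became 0.0280 without UCP1-KO-dam array 11, where Thrsp was high at 15.00 and Pklr low at 10.98. Tkfc had a slope of 0.15 (adjusted p = 0.611) and Txnip one of 0.07 (adjusted p = 0.934). Mlxipl had a slope of 0.04 (95% interval -0.18 to 0.25, adjusted p = 0.964). Gckr at -0.04 and Fgf21 at 0.00 had intervals across 0. A product term called 0 probe sets for a difference of Pklr slopes between the groups, with 1177 (5.3%) at an unadjusted p under 0.05.

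These 2 calls lay near the threshold, and in the offspring of UCP1-KO dams Pklr fell into 2 clusters. Over 21 alternative settings the Khk slope ran from 0.21 to 0.42 and was called in 11, and the Slc2a2 slope ran from 0.23 to 0.35 and was called in 7. Leaving out UCP1-KO-dam array 7, 8, 9, 10 or 12 took the call from both, with Khk at adjusted p of 0.0516, 0.0766, 0.0664, 0.0944 and 0.268 in that order and Slc2a2 at 0.0693, 0.0977, 0.0761, 0.161 and 0.268. Slc2a2 also lost it without WT-dam array 1, 3, 4 or 5 (adjusted p of 0.0566, 0.0589, 0.0570 and 0.0701), while the slopes under these omissions stayed between 0.25 and 0.38. Without UCP1-KO-dam arrays 8, 10 and 11 the slopes were 0.27 and 0.26, with limma adjusted p of 0.886 and 0.830. Among the 6 offspring of WT dams alone, Slc2a2 and Pklr had r = 0.855 (exact permutation p = 0.0333) and rho = 0.943 (exact p = 0.0167), and r was 0.838 without the 2 arrays farthest from the median. Khk had r = 0.717 (exact p = 0.108) and rho = 0.829 (exact p = 0.0583) there, with r of 0.0968 without the 2 farthest arrays. Thrsp had r = 0.805 (exact p = 0.0569) and rho = 0.771 (exact p = 0.103), with r of 0.278 without them. These p-values are unadjusted for the 8 relations. The negative control median had r = 0.057 with Pklr in this group (n = 6, exact p = 0.906; rho = 0.086, exact p = 0.919; r = -0.876 without the 2 farthest arrays). With it as a covariate Khk and Slc2a2 remained called, at slopes of 0.37 and 0.31. They also remained called with centring, with the filter on dim probe sets and with the variance trend. Quantile normalization took the call from both, at slopes of 0.34 and 0.31 (limma adjusted p = 0.0563 each). Leaving out WT-dam arrays 3 to 6 did so too (limma adjusted p = 0.0603 for Khk and 0.145 for Slc2a2).

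**Figure D3:**
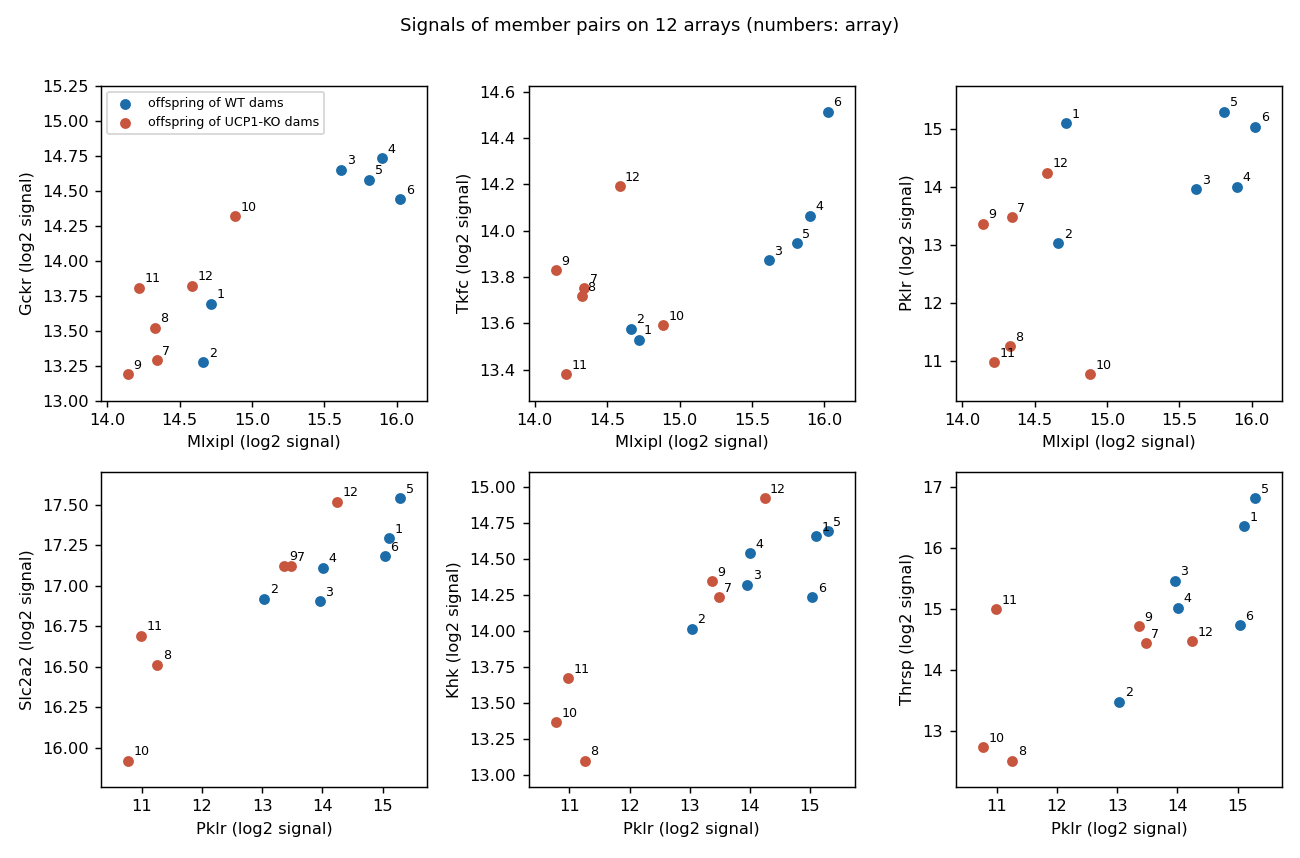
Log2 signals of 6 gene pairs on 12 arrays (points, numbered by array; blue, offspring of WT dams; red, offspring of UCP1-KO dams). Slc2a2 and Khk rise with Pklr, and UCP1-KO-dam arrays 8, 10 and 11 have the lowest Pklr signals, 10.77 to 11.26, at Mlxipl signals of 14.22 to 14.88.

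**Figure D4:**
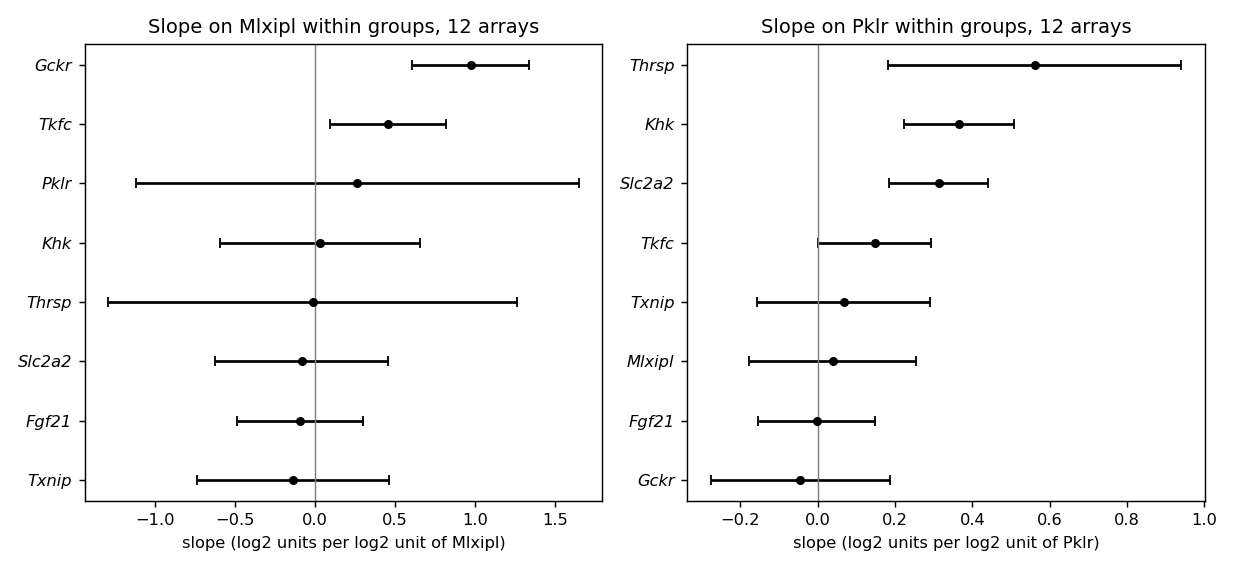
Slopes of each gene on Mlxipl (left) and on Pklr (right) within groups, with 95% intervals from limma over 12 arrays, in log2 units per log2 unit. The intervals are unadjusted. Those of Gckr and Tkfc lie above 0 on the left, and those of Thrsp, Khk, Slc2a2 and, narrowly, Tkfc on the right. By adjusted p only Khk and Slc2a2 on Pklr were called. Mlxipl on Pklr is near 0.

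Of 64 measured genes of 7 pathway lists, apart from the 9, 3 had called slopes on Pklr and 0 on Mlxipl, against 0.234% and 0% of probe sets. These 3 are named for that call. Klf10, a transcription factor gene and ChREBP target, had a slope of 0.61 (limma adjusted p = 0.0122), and it read 6.75, 6.50 and 7.38 on UCP1-KO-dam arrays 8, 10 and 11 against 8.08 to 9.09 on arrays 7, 9 and 12. Gpd2, the mitochondrial glycerol phosphate dehydrogenase, had a slope of 0.36 (limma adjusted p = 0.0431). Among offspring of WT dams Gpd2 had r = 0.984 with Pklr (n = 6, exact permutation p = 0.00972, unadjusted). There rho was 0.886 (exact p = 0.0333) and r was 0.966 without the 2 farthest arrays. These 6 arrays also entered the call for which Gpd2 is named, so the correlation is no separate support. Aldh1b1, a mitochondrial aldehyde dehydrogenase placed in the fructose list, ran the other way with a slope of -0.50 (limma adjusted p = 0.0496), and its highest reading was 12.48 on UCP1-KO-dam array 11. Pck1 encodes the entry enzyme of gluconeogenesis, a fasting gene, and its relation was picked after the values were seen. It had r = -0.974 with Pklr among offspring of WT dams (n = 6, exact permutation p = 0.00694, unadjusted), rho = -0.943 (exact p = 0.0167) and r = -0.925 without the 2 farthest arrays. Its slope over both groups was -0.15 (limma adjusted p = 0.774), so the relation was not called across all arrays. Among offspring of UCP1-KO dams Pck1 was highest on array 9 (17.67, Pklr 13.37) and lowest on array 8 (16.70, Pklr 11.26). On array 12, the highest of that group for Pklr at 14.24, Pck1 read 16.79. No correlation of the pair was computed in that group.

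The genes with the pattern most like Pklr were Kit, a receptor tyrosine kinase (r = 0.938, slope 0.46, limma adjusted p = 0.00376), Tle3, a transcriptional corepressor (r = 0.936), Ddhd2, a lipid hydrolase (r = 0.927), Nxpe2 (r = 0.925) and Shkbp1 (r = 0.925). The slopes of all 5 were called, with adjusted p of 0.00376 to 0.0303. Their deviations had r of -0.354 to -0.072 with those of the negative control median. By size, the largest called slopes of named genes were -1.65 for Tff3, a trefoil peptide, -1.48 for Mmd2 and -1.32 for Mt1, a metallothionein, below 0. Above 0 they were 0.74 for Usp2, a deubiquitinase, 0.67 for Bhlhe40, a transcriptional repressor, and 0.66 for Pfkfb3, which makes an activator of glycolysis. These 6 genes were chosen after their values were seen, and no theme among the called genes was tested.

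Around the 9 genes, the pathway lists showed no called difference by dam genotype. Among the 64 genes, 0 were called, beside 0.036% of probe sets, and 8 had an unadjusted p under 0.05, beside 13.1%. Below 0 lay 35, beside 43.2%, with a median difference of -0.06 against 0.03 over all probe sets. Insig2, which retains SREBP in the endoplasmic reticulum, came nearest, with a difference of -0.85 (95% interval -1.25 to -0.45, limma adjusted p = 0.0891), and it passed without UCP1-KO-dam array 7 (-0.97, adjusted p = 0.0381). Without that array 54 of all probe sets were called, against 8 with all arrays. The lists hold some of the 9 genes too, which their own counts include.

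The partners and regulators of ChREBP lay below 0 in 8 of 8 measured genes, with a median difference of -0.19. Ogt, whose enzyme attaches sugar-derived GlcNAc to ChREBP, differed by -0.65 (95% interval -1.16 to -0.13), and its deviations had r = 0.845 with those of Mlxipl. Nr1h3, the receptor LXR-alpha that activates the Mlxipl gene, differed by -0.42, the paralog Mlxip by -0.39 and the partner Mlx by -0.24. None of these 4 passed, with limma adjusted p of 0.232 to 0.478. Ogt was high at 11.81 to 12.23 on WT-dam arrays 3 to 6, the arrays of high Mlxipl and high negative control median, and 10.94 and 10.63 on WT-dam arrays 1 and 2.

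The other sugar-side targets had a median difference of -0.10, with 5 of 8 below 0. G6pc, which releases free glucose, differed by -0.46, Gpd2 by -0.45, Pgd of the pentose phosphate pathway by -0.19 and Arrdc4, a paralog of Txnip, by 0.23. The lipid-side targets had a median of -0.23, with 9 of 13 below 0: Fasn, fatty acid synthase, differed by -0.54, Elovl6, a fatty acid elongase, by -0.36, Gpd1 by -0.30 and Acaca, acetyl-CoA carboxylase, by -0.25. In the fructose list 5 of 7 lay below 0 with a median of -0.17, Khk and Tkfc included. Aldh1b1 differed by 0.52 and Slc2a8, below the negative control median on all arrays, by -0.25. None of these genes passed.

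Genes of glucose phosphorylation and lower glycolysis had a median of 0.07, with 4 of 14 below 0. Pfkl, the liver phosphofructokinase, differed by 0.43 (95% interval 0.12 to 0.75), Gapdh by -0.38, Pdk2 by -0.45 and the dim Hk2 by 0.21. The insulin and SREBP-1 list had a median of -0.06, with 4 of 7 below 0, and apart from Insig2 its named genes were Scap at -0.32, Usf2 at 0.17 and Irs2 at 0.21. Fasting-responsive genes had a median of 0.14, with 4 of 12 below 0. Pck1 differed by 0.58 (95% interval 0.09 to 1.08), Cpt1a, the entry enzyme of mitochondrial fatty acid oxidation, by 0.39 (0.09 to 0.70), Cyp4a14 by 0.52 and G6pc by -0.46. None passed, with limma adjusted p of at least 0.217 for the genes of these lists other than Insig2.

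**Figure D5:**
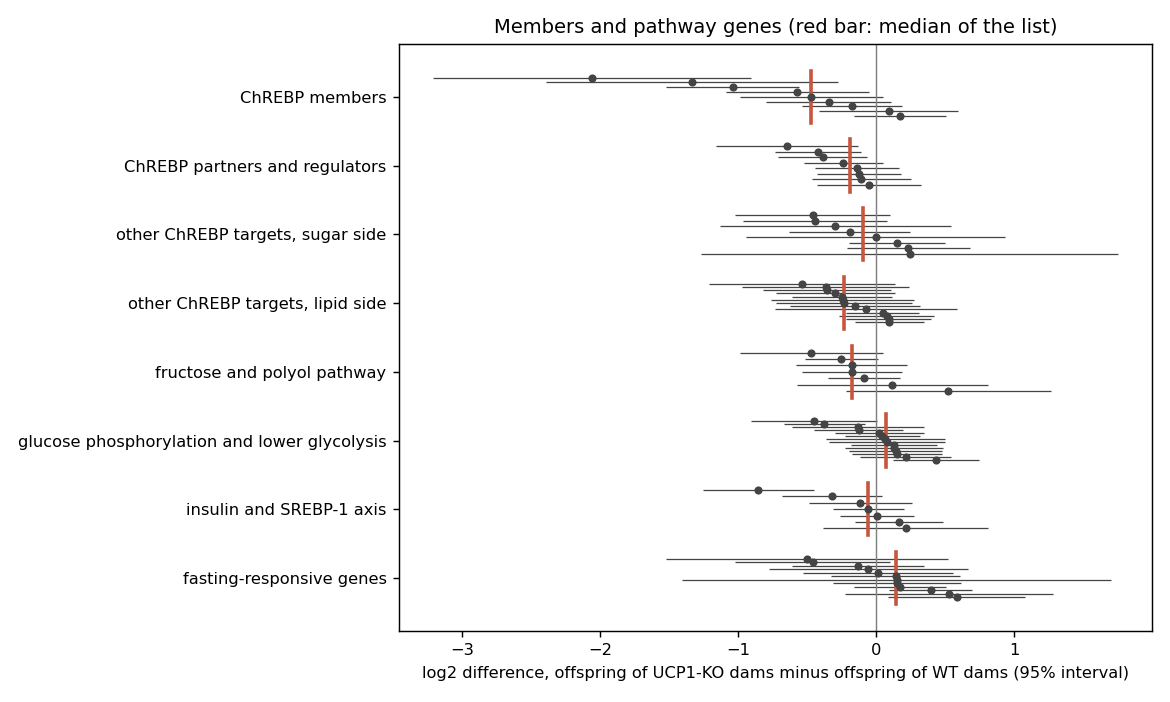
Log2 differences, UCP1-KO-dam group minus WT-dam group, with 95% intervals from limma (points and lines, 1 per gene) for the 9 genes and 7 pathway lists; red bars mark list medians. The medians run from -0.47 for the 9 genes to 0.14 for fasting-responsive genes, and most intervals in every row cross 0.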

How the data were processed

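Liver RNA of 12 mice was labelled with biotin and hybridised to 1 expression array each, per the labels' protocols. The authors deposited log2 signals, 1 per probe set and array. The submitters' processing notes name RMA (robust multi-array averaging) and Transcriptome Analysis Console, and their versions are not given in the sources used here. RMA compresses differences between dim probe sets and makes the arrays alike in distribution, so a shift of most genes one way would be reduced. The number of arrays limits the precision.

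The 6640 control rows were left out of the tests. The platform annotation gave 1 symbol to 19572 of 22206 probe sets and none to 2634. All of them were fitted with limma 3.58.1 in R 4.3.3 (two-sided, Benjamini-Hochberg over all probe sets, called at an adjusted p under 0.05), with dam genotype alone, with the level of Mlxipl or Pklr added, and with their product. Differences are the UCP1-KO-dam group minus the WT-dam group. The fits were tested on simulated data. Single relations within a group used exact two-sided permutation tests over 6 arrays. Background is the median of the negative controls, or where stated the mean of the background controls.

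The genes and lists were chosen with earlier results of these data known. Named are the 9 genes, up to 4 genes of smallest p of each pathway list, the 5 genes most like and 3 most unlike Mlxipl, and the 5 most like Pklr, among 9804 genes above background. Other genes were named after their values were seen, as stated beside them. Promoters came from RefSeq (GRCm38.p6). The array values name no build. Some listed genes were not analysed here. Alternatives were quantile normalization, centring, a filter on dim probe sets, a variance trend with robust estimation, the negative control median as a covariate, and arrays left out singly or in groups.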

Additional observations from a re-analysis of the deposited data

Results flagged for a closer look

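Txnip on UCP1-KO-dam array 10 read 12.31, away from the other 5 arrays of its group, whose nearest value was 13.01. The gap was 0.696 of the group's range, above Dixon's 95% critical value for 6 samples. It was 1 of 18 groups of gene and dam genotype examined, and chance flags about 1 in 20. Without this array the Txnip difference was 0.24 instead of 0.09.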

How the results depend on the processing

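The median difference of the 9 genes, -0.47, became 0.0072 without UCP1-KO-dam arrays 8, 10 and 11. The slopes of Khk and Slc2a2 on Pklr, both called, kept their sign under the settings tried. Other called probe sets were only counted in each setting, and their signs were not compared. The 8 probe sets called by dam genotype became 30 with only probe sets above the negative control median, 22 with a variance trend and robust estimation, 2 with the negative control median as a covariate, and 0 without WT-dam arrays 3 to 6 or without UCP1-KO-dam arrays 8, 10 and 11. Leaving out 1 array gave 1 (without UCP1-KO-dam array 8) to 112 (without WT-dam array 2), with 54 without UCP1-KO-dam array 7. The count on Mlxipl, 0, became 3 with quantile normalization, 1 with the filter on dim probe sets and 5 with the variance trend. The 52 probe sets called on Pklr became 28 without WT-dam arrays 3 to 6, 14 without UCP1-KO-dam arrays 8, 10 and 11, 3 in offspring of WT dams alone and 28 in offspring of UCP1-KO dams alone. Leaving out 1 array gave 9 (without UCP1-KO-dam array 12) to 68, with 16 without array 10, 24 without array 8, 30 without array 9 and 33 without array 7. The count of pathway genes called by dam genotype, 0, was 0 to 1 with 1 array left out. The causes were not tested. The settings without arrays 8, 10 and 11, and all those on Pklr, were chosen after seeing the data. The mean over all probe sets of a symbol gave no separate value, since each gene had 1, and the product term was not run without WT-dam arrays 3 to 6. No paired analysis was possible because no array number of the labels is shared between the groups. Fgf21 lay too near background for its differences to be measured.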
